A study of Mus musculus with 2 samples.

Results

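Growth factor and cytokine receptors of liver myeloid cells were described through 10 genes, Csf1r, Csf2ra, Csf2rb, Csf3r, Flt3, Il4ra, Il7r, Ifngr1, Tgfbr1 and Tgfbr2, taken by symbol from the 25909 genes of a single-cell mRNA count matrix. The matrix holds 1 mouse of each combination of diet and genotype. Male mice, 6 to 12 weeks old when the diets began, received normal diet (ND) or, for 7 weeks, CDA-HFD, a diet rich in fat, free of choline and with amino acids in place of protein, used as a model of steatohepatitis with fibrosis. The genotypes were Egr2fl/fl, with floxed alleles of the transcription factor gene Egr2, and Lyz2Cre/+.Egr2fl/fl, in which a Cre recombinase inserted in the Lyz2 locus acts in monocytes, macrophages and neutrophils. Live liver cells positive for CD45.2 and CD11b and negative for CD90.2, B220, NK1.1 and SiglecF were sorted, tagged with 1 hashtag per mouse, pooled into 1 library with 3000 cells loaded per ND-fed mouse and 9000 per CDA-HFD-fed mouse, and processed on BD Rhapsody with TAS-Seq amplification. The mice are called ND fl/fl (hashtag A951), ND Cre (A952), CDA-HFD fl/fl (A953) and CDA-HFD Cre (A954), and where 4 values are listed they follow that order.

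The receptors connect soluble ligands to survival, lineage and activation programmes of myeloid cells. Those for colony-stimulating factors, for Flt3 ligand and for the interleukins signal through tyrosine kinases, either built into the receptor or, as with the Janus kinases, bound to it, while TGF-β receptors are serine/threonine kinases that phosphorylate Smad proteins. In liver, Kupffer cells depend on signals through the CSF1 receptor, and TGF-β is a known driver of fibrosis and of macrophage identity.

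After the limit of 25% mitochondrial counts, 1723, 1590, 5885 and 6186 cells remained, with 32029953, 27840300, 85227192 and 90124521 counts in total and medians of 16459, 15864.5, 13168 and 13476.5 counts per cell. Hashtag doublets named in the matrix (1392 of 16786 barcodes) were left out, and 0 barcode numbers were shared between mice. Each cell received a score from 0 to 1 for each list of marker genes, and it was placed in the class of its best score where that score was at least 0.3 and led the next by at least 0.1. Placement covered 12146 cells, and 3238 stayed without a class, 10.9%, 7.30%, 23.8% and 24.8% of the 4 mice. A class is thus a range of scores, and 2966 cells lay within 0.05 of its borders. None of the 10 receptors is a marker.

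Kupffer cells came almost wholly from the ND-fed mice, with 764, 828, 5 and 13 cells, and monocyte-derived macrophages from the CDA-HFD-fed mice, with 73, 68, 1335 and 1376, under unequal loading. Ly6Chi monocytes numbered 155, 87, 1104 and 1298, Ly6Clo monocytes 132, 81, 401 and 463, Cd209a+ dendritic cells 162, 122, 685 and 634, and neutrophils 96, 173, 750 and 616. Ccr7+ dendritic cells reached the minimum of 50 cells only on CDA-HFD (124 and 101) and Xcr1+ dendritic cells only in CDA-HFD Cre (57), while T or NK cells (122 in all) and endothelial cells (106 in all) are given only pooled over the mice. The median score of cells for their own class was 0.769 in Kupffer cells, 0.520 in macrophages, 0.532 in Ly6Chi and 0.570 in Ly6Clo monocytes, 0.446 in Cd209a+, 0.669 in Xcr1+ and 0.640 in Ccr7+ dendritic cells and 0.507 in neutrophils. Kupffer cells also carried a median macrophage score of 0.345, and Ly6Chi monocytes a median Ly6Clo score of 0.165. Macrophages had a median Kupffer score of 0.00664 and a median Ly6Chi score of 0.0905. Levels are counts of a gene per 1000000 counts of the class in a mouse (CPM). Bracketed ranges after levels and ratios are 95% intervals, exact Poisson for CPM, exact binomial for ratios and Clopper-Pearson for shares, and they cover counting error at most, since each group is 1 mouse. Those of levels and ratios treat counts as independent and are too narrow if the counts are reads, which is not known.

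Egr2 itself checked the labels. In monocyte-derived macrophages it stood at 68.9 (53.7 to 87.1), 6.68 (2.45 to 14.5), 55.7 (53.1 to 58.4) and 9.84 (8.74 to 11.0) CPM, so both Cre mice lay below both fl/fl mice, at ratios of 0.0970 on ND and 0.177 on CDA-HFD. In Kupffer cells Egr2 was 4.57 (3.66 to 5.63) CPM in ND fl/fl and 0.953 (0.565 to 1.51) in ND Cre. In Ly6Chi monocytes its CPM was 9.53, 5.27, 35.8 and 12.8, in Ly6Clo monocytes 0, 1.57, 35.5 and 9.41 and in neutrophils 5.22, 2.72, 47.8 and 3.59, lower in CDA-HFD Cre than in CDA-HFD fl/fl in each. On ND these 3 classes held few Egr2 counts (20 and 6, 0 and 1, 2 and 2), with a ratio of 0.553 (0.182 to 1.43) in Ly6Chi monocytes. In Cd209a+ dendritic cells Egr2 was 32.9, 49.6, 57.7 and 46.2 CPM, at genotype ratios of 1.51 on ND and 0.800 on CDA-HFD. Lyz2, whose locus carries Cre on 1 allele, was 10532, 5146, 12328 and 6351 CPM in macrophages, at 0.489 and 0.515 of the fl/fl level.

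Csf1r, the receptor for CSF1 and IL-34 that sustains tissue macrophages, was 2483 CPM (2461 to 2506) in Kupffer cells of ND fl/fl and 2325 CPM (2303 to 2347) in those of ND Cre. These were its highest levels, and no mouse's value in another class reached them. Ly6Clo monocytes (1040.3 to 1230.2 CPM over the 4 mice) and monocyte-derived macrophages (1246, 1552, 930.3 and 982) followed. Macrophages were the higher on ND and the lower on CDA-HFD. By pooled level came then Ly6Chi monocytes (648 to 887), Cd209a+ dendritic cells (194 to 281), neutrophils (203 to 282) and Ccr7+ dendritic cells (65.6 to 75.8 over 2 mice). Pooled endothelial cells (163 CPM) and Xcr1+ dendritic cells (85.0) lay between neutrophils and Ccr7+ dendritic cells. The ranges of Cd209a+ dendritic cells and neutrophils overlapped. A count of Csf1r was found in 1607 of 1610 Kupffer cells, 99.8% (99.5 to 100), and 99.2% after each cell was thinned to 3000 counts. In T or NK cells, which should lack the receptor but are no clean reference after this sort, the share was 13.1% (7.69 to 20.4) and 6.56% when thinned. Median depths of the 2 classes were 24704.5 and 6565 counts.

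Csf2ra, the ligand-binding chain of the GM-CSF receptor, was found in all myeloid classes, at 204 to 228 CPM in Ly6Clo monocytes, 183 to 217 in neutrophils, 142 to 190.2 in Ly6Chi monocytes, 147 to 173 in macrophages, 115 to 159 in Cd209a+ dendritic cells, 118 to 121 in Kupffer cells and 97.9 to 104 in Ccr7+ dendritic cells. Each of the first 5 overlapped the next in the range over mice. Pooled over mice it was 28.8 CPM (20.2 to 39.9) in endothelial cells and lower in T or NK cells, with an interval of 6.74 to 22.8 CPM, the 2 lowest levels. Csf2rb, the β chain that GM-CSF, IL-3 and IL-5 receptors share, was 306 CPM (281 to 333) in Ccr7+ dendritic cells of CDA-HFD fl/fl and 342 CPM (312 to 374) in those of CDA-HFD Cre, above every mouse's value in the other classes. Neutrophils came next with 295, 187, 239.8 and 186 CPM, ahead of Ly6Chi monocytes (142 to 178), Ly6Clo monocytes (103 to 164), Kupffer cells (109.9 to 124), Cd209a+ dendritic cells (81.9 to 136) and macrophages (79.1 to 124). The last 5 overlapped one another in turn. Csf2rb has a near-identical neighbour, Csf2rb2, so reads may be split between them and its level is uncertain.

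Csf3r, the G-CSF receptor of the granulocyte lineage, was 2596 (2437 to 2762), 2525 (2412 to 2643), 2242 (2191 to 2294) and 2092 (2039 to 2147) CPM in neutrophils. All 4 values lay far above those of Ly6Clo monocytes (87.9 to 157), Ly6Chi monocytes (98.9 to 138), macrophages (51.5 to 84.7), Kupffer cells (42.2 to 50.3), Ccr7+ dendritic cells (18.8 to 22.6) and Cd209a+ dendritic cells (7.61 to 14.2), and the 2 monocyte ranges overlapped. Pooled endothelial cells had 91.3 CPM (75.3 to 110) and pooled T or NK cells 38.0 (26.5 to 52.9). Of neutrophils, 1589 of 1635 had a count, 97.2% (96.3 to 97.9), and 95.7% when thinned, although their median depth was 4042 counts. Among Cd209a+ dendritic cells, with a median depth of 15508, the share was 8.73% (7.40 to 10.2), and 2.37% when thinned. Flt3, the receptor tyrosine kinase of dendritic cell progenitors and their progeny, was held by the dendritic classes: 67.3, 56.2, 99.7 and 107 CPM in Cd209a+ cells, 112 and 115 in Ccr7+ cells of the CDA-HFD-fed mice and 126 in Xcr1+ cells of CDA-HFD Cre. Pooled over mice these classes had 95.5 (91.8 to 99.3), 114 (103 to 125) and 106 (97.1 to 117) CPM, and the interval of Xcr1+ cells overlapped those of both others, which lay apart. Ly6Chi monocytes had 7.07 to 13.3 CPM, and pooled Ly6Clo monocytes, macrophages, neutrophils and Kupffer cells had 2.36, 1.82, 1.11 and 0.807. A count of Flt3 was present in 51.0% (48.6 to 53.5) of Cd209a+ dendritic cells (20.4% thinned) against 1.18% (0.712 to 1.84) of Kupffer cells (0.248% thinned), which are deeper at a median of 24704.5 counts.

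Il4ra, the α chain shared by the IL-4 and IL-13 receptors, was 54.8, 58.6, 74.2 and 72.5 CPM in neutrophils and 69.2 and 64.2 in Ccr7+ dendritic cells of the CDA-HFD-fed mice, and these ranges overlapped. Pooled endothelial cells had 66.5 CPM (52.9 to 82.4) and pooled T or NK cells 53.2 (39.4 to 70.4). Kupffer cells had 39.4 to 45.0 CPM, Ly6Chi monocytes 20.2 to 42.7, macrophages 32.7 to 46.8, Cd209a+ dendritic cells 30.4 to 36.0 and Ly6Clo monocytes 11.0 to 29.6. Of these, Cd209a+ dendritic cells lay above every Ly6Clo value, and the other neighbours overlapped. Il7r, the IL-7 receptor chain also used by TSLP and best known from lymphocytes, was 119 CPM (104 to 136) and 178 (156 to 202) in Ccr7+ dendritic cells of CDA-HFD fl/fl and CDA-HFD Cre, and 116 CPM (95.3 to 140.5) in pooled T or NK cells. Macrophages had 6.89, 7.80, 48.0 and 36.6 CPM and Cd209a+ dendritic cells 27.5, 19.7, 17.0 and 15.0, so macrophages were the higher on CDA-HFD and the lower on ND. The 2 ND macrophage values were low and the 2 CDA-HFD values high, with no overlap. Neutrophils and both monocyte classes stayed at or below 7.89 CPM in each mouse. Il7r was counted in 48.4% (42.1 to 54.8) of Ccr7+ dendritic cells (27.2% thinned) and 17.8% (16.4 to 19.3) of macrophages (7.19% thinned) at median depths of 13223 and 20026 counts. The share was 1.12% (0.664 to 1.76) in Kupffer cells (0.248% thinned, median depth 24704.5), and 0 of 106 endothelial cells had a count, which limits the share with a detected count to 3.42% and not the share that expresses the gene.

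Ifngr1, the ligand-binding chain of the interferon-γ receptor, was 628 (579 to 679), 770.4 (704 to 842), 450.0 (429 to 471) and 579 (558 to 600.4) CPM in Ly6Clo monocytes, its highest myeloid class. Their range overlapped that of Kupffer cells (441 to 484), which overlapped Ly6Chi monocytes (331 to 476), and these just met Cd209a+ dendritic cells. Cd209a+ dendritic cells (259 to 331) and macrophages (174 to 375) overlapped each other too, while neutrophils (85.8 to 152) and Ccr7+ dendritic cells (39.4 to 63.1) lay lower, below every macrophage value. Pooled T or NK cells had 510 CPM (464 to 558) and pooled endothelial cells 109 (91.4 to 129). Counts of Ifngr1 were in 84.6% (82.3 to 86.7) of Ly6Clo monocytes, and in 68.2% when thinned.

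Tgfbr1, the type I TGF-β receptor kinase, was 272 (241 to 306), 422 (381 to 467), 186 (182 to 191) and 179.5 (175 to 184) CPM in monocyte-derived macrophages. Each of these exceeded every value in Ly6Clo monocytes (95.8 to 158), Ly6Chi monocytes (30.0 to 95.4), neutrophils (33.9 to 84.3), Cd209a+ dendritic cells (58.7 to 85.8), Kupffer cells (66.6 to 76.1) and Ccr7+ dendritic cells (27.7 to 28.4). Ly6Chi monocytes, neutrophils, Cd209a+ dendritic cells and Kupffer cells overlapped. Tgfbr2, the type II chain that binds TGF-β first, was 189.8 CPM (166 to 216) in pooled endothelial cells. In Kupffer cells it was 107 and 122 CPM, in neutrophils 54.8 to 80.0, in Ly6Clo monocytes 59.6 to 81.8, in macrophages 139.8, 102, 50.5 and 65.1, in Ly6Chi monocytes 34.4 to 47.5, in Cd209a+ dendritic cells 33.6 to 43.5 and in Ccr7+ dendritic cells 8.02 to 21.0. Both ND macrophage values lay above both CDA-HFD values. Neutrophils and Ly6Clo monocytes overlapped, as did Ly6Chi monocytes and Cd209a+ dendritic cells. A Tgfbr2 count was in 70.5% (68.2 to 72.7) of Kupffer cells and 65.1% (55.2 to 74.1) of endothelial cells, and when thinned the shares were 25.4% and 35.8%. Only the thinned shares follow the CPM, so no order is read from the others.

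**Figure D1:**
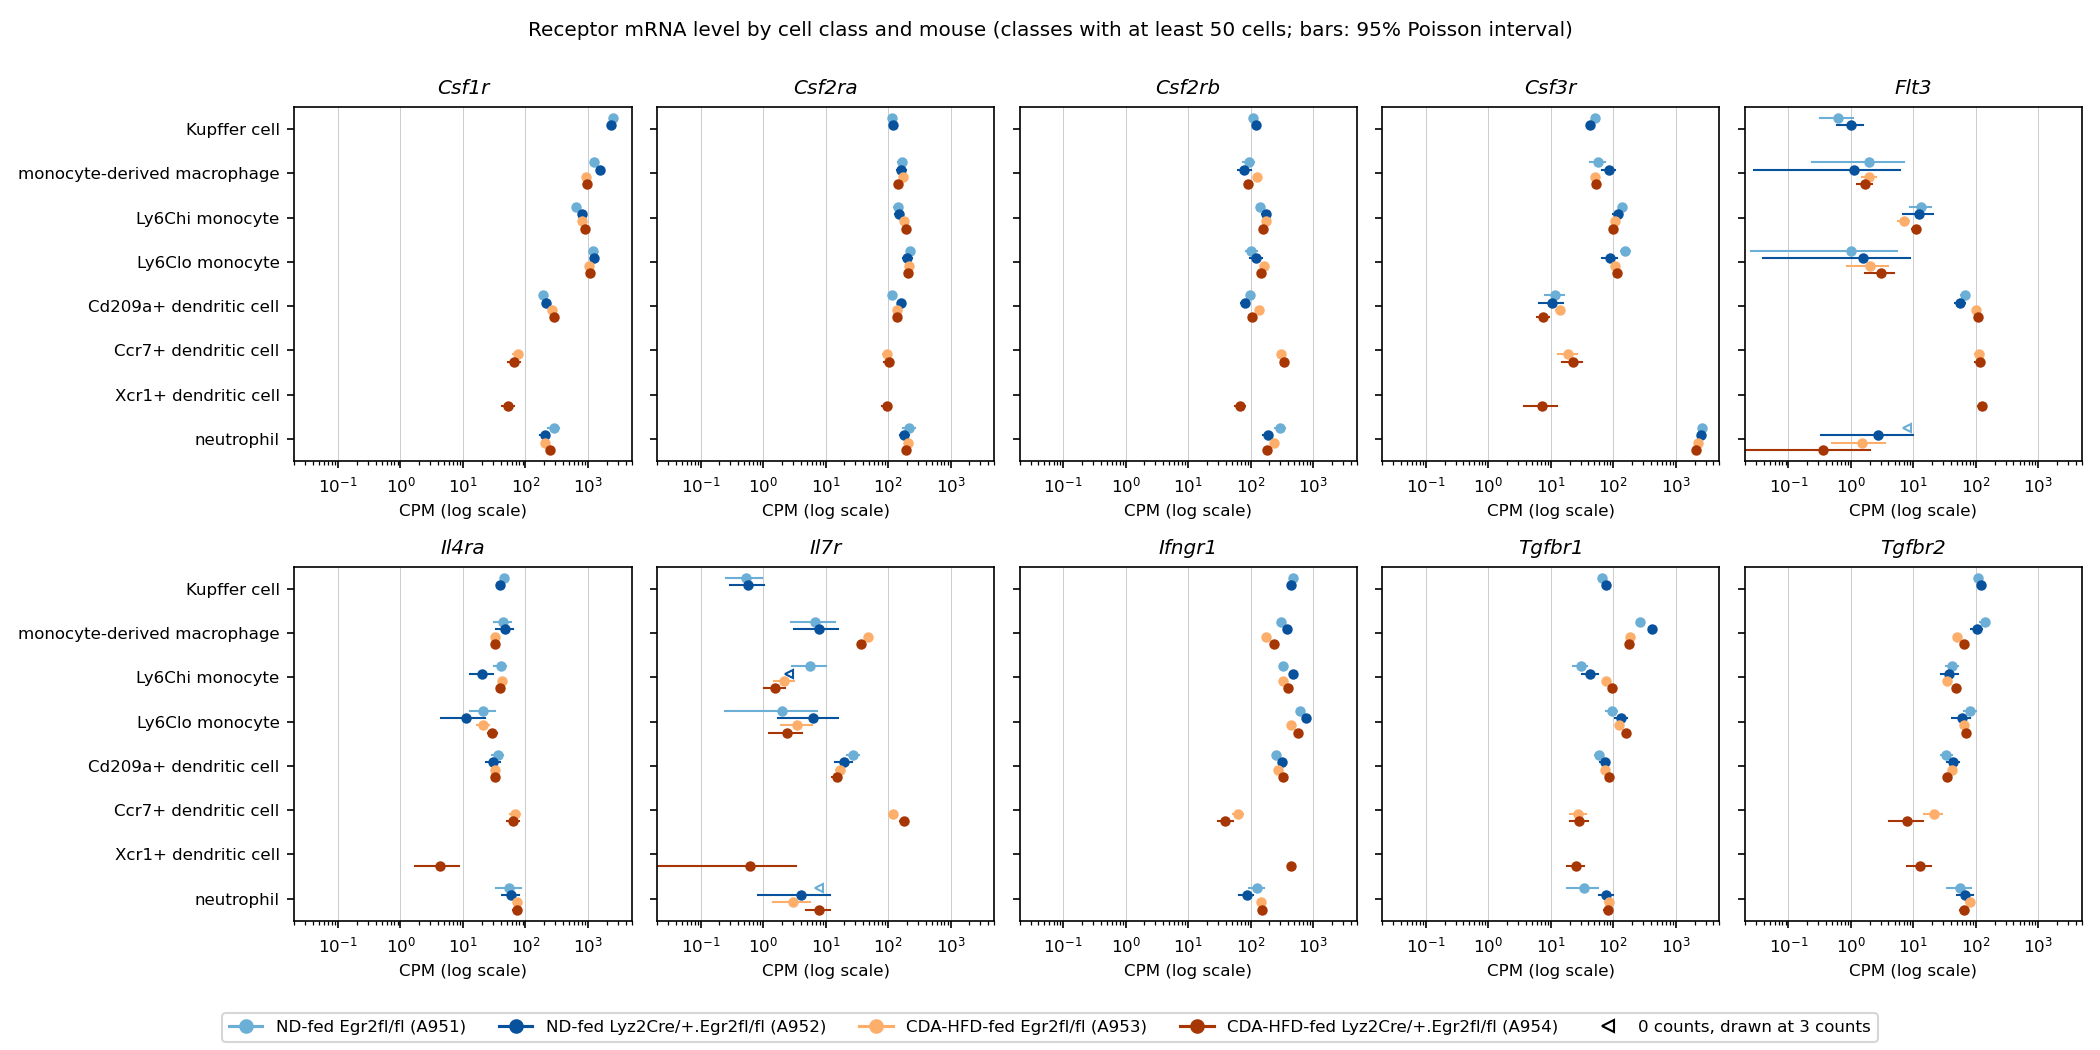
Level of each of the 10 receptors in CPM (log axis) in 8 classes, 1 point for each mouse with at least 50 cells of the class, bars giving the exact Poisson 95% interval of counting error. Csf3r stands at 2092 to 2596 CPM in neutrophils, and Il7r in macrophages separates the ND-fed mice (6.89 and 7.80) from the CDA-HFD-fed mice (48.0 and 36.6).

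Genotype and diet were compared within classes that had 50 cells in both mice, for receptors with 50 counts over both. A receptor counted as past the fold when its CPM ratio was at least 1.5 or at most the inverse. Of 194 such pairs of receptor and class, 28 were past it, 14 higher and 14 lower. Among all genes 8.51% to 47.3% were past it, by class and comparison. Of the 28 pairs, 11 stayed past it under each alternative that gave a ratio. That number takes lower bounds at the floor of 3 counts as ratios, and Il7r in fl/fl macrophages is left out of it by such a bound alone. Alternatives were not held to 50 cells. Here and below, each alternative means each of the 10, or 9 outside macrophages, that gave ratios. A minimum of 200 counts and a fold of 2 are not among them. The first left 11 pairs higher and 11 lower, and the second 7 higher and 2 lower. The stricter gate left 37 and 41 ND macrophages. Cells with 90% of hashtag counts on their own hashtag were 35 and 32 ND macrophages and 19 and 40 ND neutrophils. The 4 comparisons share mice, each mouse entering 1 genotype and 1 diet comparison, so their values stand side by side. With trimmed-mean (TMM) scaling in place of total counts, 24 were higher and 8 lower. That scaling moved all genes of a class by 0.10 to 0.49 log2 units upward in the diet comparisons, with 0.28 and 0.26 in macrophages, and by -0.12 to 0.07 between genotypes.

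Genotypes were compared first on ND, where the question is what loss of Egr2 does without the disease diet. In monocyte-derived macrophages Tgfbr1 stood at 272 CPM (241 to 306) in fl/fl and 422 (381 to 467) in Cre, a ratio of 1.55 (1.33 to 1.82). Its alternatives gave 1.07 to 1.58, with 3 of 10 past 1.5-fold. Csf3r was 56.1 CPM (42.5 to 72.7) and 84.7 (66.7 to 106), a ratio of 1.51 (1.06 to 2.17), past the fold in 2 of 10 alternatives (0.878 to 2.32). Both had under 50 cells per mouse, and the ratio was below 1 under each of the 3 clusterings. Of its 76 counts in ND Cre, 30.3% came from 1 cell. The 12 neutrophil markers, with 12, 11, 12 and 12 detected, summed to 1179, 887, 879.7 and 774 CPM in macrophages, led by Cxcl2 or, in ND Cre, S100a9, and their part in the Csf3r value was not tested. Past the fold were 2 of 8 receptors in macrophages, against 25.5% of all genes with 50 counts.

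In Ly6Chi monocytes on ND, Il4ra was 40.0 CPM (31.9 to 49.5) in fl/fl and 20.2 (12.8 to 30.3) in Cre, a ratio of 0.505 (0.304 to 0.809) from 84 and 23 counts, past the fold in 7 of 9 alternatives (0.484 to 0.732). It was 1 of the 8 receptors tested there, against 21.5% of all genes. In Ly6Clo monocytes Csf3r was 157 CPM (133 to 183) and 87.9 (66.4 to 114), a ratio of 0.561 (0.406 to 0.766) that each alternative kept past the fold. Neutrophil markers there summed to 344 and 256 CPM (9 and 5 of 12 detected, S100a8 most abundant), lower in the same mouse, and their part was not tested. Ly6Clo monocytes had 1 of 7 past the fold, against 23% of all genes. In neutrophils Tgfbr1 was 33.9 CPM (18.1 to 58.1) from 13 counts in fl/fl and 77.6 (58.8 to 101) from 57 in Cre, a ratio of 2.29 (1.24 to 4.55). It was past the fold in each of the 9 alternatives that gave a ratio (2.15 to 5.76, the highest with the stricter gate). Its counts lie under the minimum of 200 used as a further alternative. Csf2rb was 295 CPM (243 to 355) and 187 (157 to 221), a ratio of 0.632 (0.489 to 0.819), past the fold in 4 of 9 alternatives and 2.05 where only the 19 and 40 cells with 90% of hashtag counts on their own hashtag were kept, under the minimum of 50. Neutrophils had 2 of 8 past the fold, against 24.7% of all genes. Kupffer cells, the best sampled class on ND, had 0 of 8 receptors past it against 8.85% of all genes, and Cd209a+ dendritic cells 0 of 10 against 19.9%. The Kupffer cell ratios included 0.936 (0.924 to 0.949) for Csf1r, 0.910 (0.883 to 0.937) for Ifngr1 and 1.14 (1.07 to 1.21) for Tgfbr2.

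Genotypes were then compared on CDA-HFD, where macrophages and monocytes were most numerous. Here 0 of 10 receptors were past 1.5-fold in macrophages (all genes 8.51%), 1 of 10 in Ly6Chi monocytes (9.22%), 0 of 8 in Ly6Clo monocytes (13.9%), 1 of 10 in Cd209a+ dendritic cells (9.27%), 1 of 9 in Ccr7+ dendritic cells (21.9%) and 0 of 8 in neutrophils (17.9%). The split was 1 higher and 2 lower. Among alternatives it was 2 and 0 in Seurat clusters, 1 and 0 in those with a scale of 10000, 1 and 4 with at least 90% own hashtag, 1 and 1 with the stricter gate or a minimum of 200 counts, and 2 and 2 with the CPM of single cells averaged, without the highest Scrublet scores or with the moKC side for macrophages. In macrophages, with 1335 and 1376 cells, the nearest were Csf2rb at 0.739 (0.703 to 0.776), Ifngr1, 174 against 235 CPM at a ratio of 1.35 (1.30 to 1.40), Tgfbr2 at 1.29 (1.20 to 1.38) and Il7r at 0.762 (0.704 to 0.825). Tgfbr1, 186 against 179.5 CPM, had a ratio of 0.963 (0.928 to 1.00). Flt3 in Ly6Chi monocytes was 7.07 CPM (5.77 to 8.57) in fl/fl and 11.0 (9.46 to 12.6) in Cre, a ratio of 1.55 (1.21 to 1.99), past the fold in 8 of 9 alternatives (1.45 to 1.72). The 10 Cd209a+ dendritic cell markers, all detected, summed to 864 and 1027 CPM in these monocytes, led by H2-Eb1, and their part was not tested. Csf3r in Cd209a+ dendritic cells was 14.2 CPM (12.1 to 16.6) and 7.61 (6.02 to 9.50), a ratio of 0.537 (0.404 to 0.709), past the fold in 4 of 9 alternatives and above 1 in the 3 clusterings (0.532 to 1.12). Neutrophil markers in that class summed to 485 and 328 CPM (12 of 12 detected, S100a8 most abundant), lower in the same mouse, and their part was not tested. In Ccr7+ dendritic cells Ifngr1 was 63.1 CPM (52.0 to 75.8) and 39.4 (29.6 to 51.4), a ratio of 0.624 (0.443 to 0.870), past the fold in 4 of 9 alternatives (0.557 to 1.20), while Il7r, 119 against 178 CPM, fell just short of it.

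Diets were compared within each genotype, the question being how receptor levels differ in the disease model. In monocyte-derived macrophages of the fl/fl mice Il7r was 6.89 CPM (2.77 to 14.2) on ND, from 7 counts, and 48.0 (45.6 to 50.6) on CDA-HFD, a ratio of 6.97 (3.38 to 17.4). In the Cre mice it was 7.80 CPM (3.14 to 16.1), also from 7 counts, and 36.6 (34.4 to 38.9), a ratio of 4.69 (2.27 to 11.7). Alternatives with Il7r counts in both mice gave 4.27 to 16.1 in fl/fl and 2.96 to 9.18 in Cre, all past the fold, the lowest with the stricter gate and the highest with the CPM of single cells averaged. Both ND values lay below both CDA-HFD values, and T or NK cell markers summed to 1.97, 6.68, 4.75 and 3.23 CPM in macrophages, with 1, 3, 9 and 11 of 12 detected and Cd3d, Trac, Klrb1c and Cd3d most abundant. Ccr7+ dendritic cell markers, from the other class rich in Il7r, summed to 659, 107, 166 and 140.2 CPM, with 7, 4, 10 and 9 of 10 detected, led by Ccl5 in ND fl/fl and Tmem123 in the others. Tgfbr2 went from 139.8 to 50.5 CPM in fl/fl, a ratio of 0.362 (0.304 to 0.432), and from 102 to 65.1 in Cre, a ratio of 0.635 (0.515 to 0.792). The fl/fl ratio stayed past the fold in each alternative, and the Cre ratio in 8 of 10, coming to 0.763 under TMM scaling.

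Ifngr1 in macrophages was 310.1 CPM (277 to 346) on ND and 174 (169 to 179) on CDA-HFD in fl/fl, a ratio of 0.561 (0.501 to 0.630), and 375 (336 to 418) and 235 (229 to 240.4) in Cre, a ratio of 0.625 (0.561 to 0.700), and both came within 1.5-fold under TMM scaling (0.681 and 0.751). They stayed past it in 9 of 10 and 7 of 10 alternatives. Tgfbr1 had a ratio of 0.425 (0.383 to 0.473) in Cre, kept by each alternative, and 0.686 (0.608 to 0.777) in fl/fl. Csf1r had 0.632 (0.599 to 0.668) in Cre, from 1552 to 982 CPM, past the fold in 7 of 10 alternatives, and 0.746 (0.706 to 0.790) in fl/fl. Csf3r had 0.627 (0.498 to 0.800) in Cre, past the fold in 4 of 10 alternatives (0.423 to 0.963). Its ND Cre level is the one given above with a large part of the counts from a single cell. The part of that cell in this ratio was not tested. Under TMM scaling Csf1r and Csf3r in Cre were 0.759 and 0.753. Macrophages thus had 3 of 10 receptors past the fold in fl/fl and 6 of 10 in Cre, and among all genes the shares were 45.9% and 46.2%. The median ratio of the 10 receptors was 0.836 in fl/fl and 0.670 in Cre, and that of all genes 0.950 and 0.964, and under TMM scaling 1.02 and 0.805 for the receptors and 1.15 and 1.16 for all genes. Median depth was 9226, 10629.5, 21245 and 19251 counts per macrophage, and different macrophages filled the class on the 2 diets: the 9 hLAM markers (hepatic lipid-associated macrophages) summed to 2075, 1383, 5583 and 4575 CPM, Lgals3 most abundant, and the 9 moKC markers (Kupffer-like macrophages from monocytes) to 3123, 5451, 1374 and 1693, led by Cd207 on ND and Cd5l on CDA-HFD. Cd209a+ dendritic cell markers summed to 11872, 10519, 5475 and 4397 CPM in the class, 10, 8, 10 and 10 of 10 detected and H2-Eb1 most abundant, and their part in these ratios was not tested.

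In Ly6Chi monocytes Tgfbr1 was 30.0 CPM (23.1 to 38.4) on ND and 76.4 (72.0 to 81.0) on CDA-HFD in fl/fl, a ratio of 2.55 (1.97 to 3.34), and 43.1 (31.9 to 56.9) and 95.4 (90.9 to 100.1) in Cre, a ratio of 2.22 (1.67 to 3.01). The 2 ND values lay below the 2 CDA-HFD values, and each alternative kept both ratios past the fold (1.66 and 1.56 at the lowest). Macrophage markers in these monocytes summed to 3313, 2691, 5079.5 and 8306 CPM, 12, 10, 12 and 12 of 12 detected and Apoe most abundant, higher on CDA-HFD too, and their part was not tested. Il4ra had a ratio of 1.91 (1.26 to 3.04) in Cre, kept by each alternative, and 1.07 (0.849 to 1.36) in fl/fl, and the ND Cre value of 20.2 CPM stood apart from the other 3 (40.0, 42.7 and 38.7). Flt3 had 0.530 (0.346 to 0.836) in fl/fl, from 13.3 to 7.07 CPM, past the fold in 8 of 9 alternatives, while Cd209a+ dendritic cell markers in the class went from 2972 to 864 CPM, and their part was not tested. Ly6Chi monocytes had 2 of 9 receptors past the fold in fl/fl (all genes 29.1%) and 2 of 9 in Cre (35%).

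In Ly6Clo monocytes Csf2rb was 103 CPM (83.9 to 125) and 164 (151 to 177) in fl/fl, a diet ratio of 1.59 (1.29 to 1.98), past the fold in 6 of 9 alternatives, and Il4ra was 11.0 CPM (4.42 to 22.6) from 7 counts and 29.6 (25.1 to 34.8) in Cre, a ratio of 2.70 (1.28 to 6.83) past the fold in each of the 9 alternatives that gave a ratio (1.61 to 3.17). Each was 1 of 8 receptors past the fold, against 35.2% of all genes in fl/fl and 37.1% in Cre. Neutrophils express both genes at higher levels, and their markers in this class summed to 344, 256, 1714 and 1454 CPM, with 9, 5, 12 and 12 of 12 detected, Cxcl2 most abundant in CDA-HFD fl/fl and S100a8 in the others, and their part was not tested. In Cd209a+ dendritic cells Flt3 was 56.2 CPM (46.6 to 67.2) and 107 (101 to 114) in Cre, a ratio of 1.91 (1.58 to 2.32) kept by each alternative, and 67.3 (58.2 to 77.4) and 99.7 (93.9 to 106) in fl/fl, a ratio of 1.48 (1.27 to 1.73) that missed the fold. Il7r had a ratio of 0.618 (0.473 to 0.813) in fl/fl, past the fold in 2 of 9 alternatives, but lay above 1 in each of the 3 clusterings, at up to 2.77. T or NK cell markers in these dendritic cells summed to 128, 159, 28.6 and 20.6 CPM, with 10, 10, 12 and 12 of 12 detected and Trac, Trbc2, Klre1 and Klre1 most abundant, higher on ND as Il7r was, and their part was not tested. Cd209a+ dendritic cells had 1 of 10 past the fold in fl/fl and 1 of 10 in Cre (all genes 24.5% and 25.3%).

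In neutrophils Tgfbr1 was 33.9 CPM (18.1 to 58.1) on ND and 84.3 (74.6 to 94.8) on CDA-HFD in fl/fl, a ratio of 2.48 (1.43 to 4.72) past the fold in each alternative (2.35 to 5.48), and 77.6 (58.8 to 101) and 81.1 (70.9 to 92.4) in Cre, a ratio of 1.04 (0.778 to 1.42). The ND fl/fl value, from 13 counts, was low and the other 3 overlapped in their intervals. Ifngr1 had a ratio of 1.78 (1.36 to 2.35) in Cre, from 85.8 to 152 CPM, past the fold in 5 of 9 alternatives. Macrophage markers in neutrophils summed to 1264, 1353, 2709 and 2916 CPM, 10, 12, 12 and 12 of 12 detected and Cd9 most abundant, and their part was not tested. The count was 1 of 8 in fl/fl and 1 of 8 in Cre, against 47.3% and 37.3% of all genes. Over all classes the diet comparison had 4 pairs of receptor and class higher and 4 lower in fl/fl and 6 higher and 5 lower in Cre, and under TMM scaling 12 and 2 in fl/fl and 9 and 1 in Cre.

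**Figure D2:**
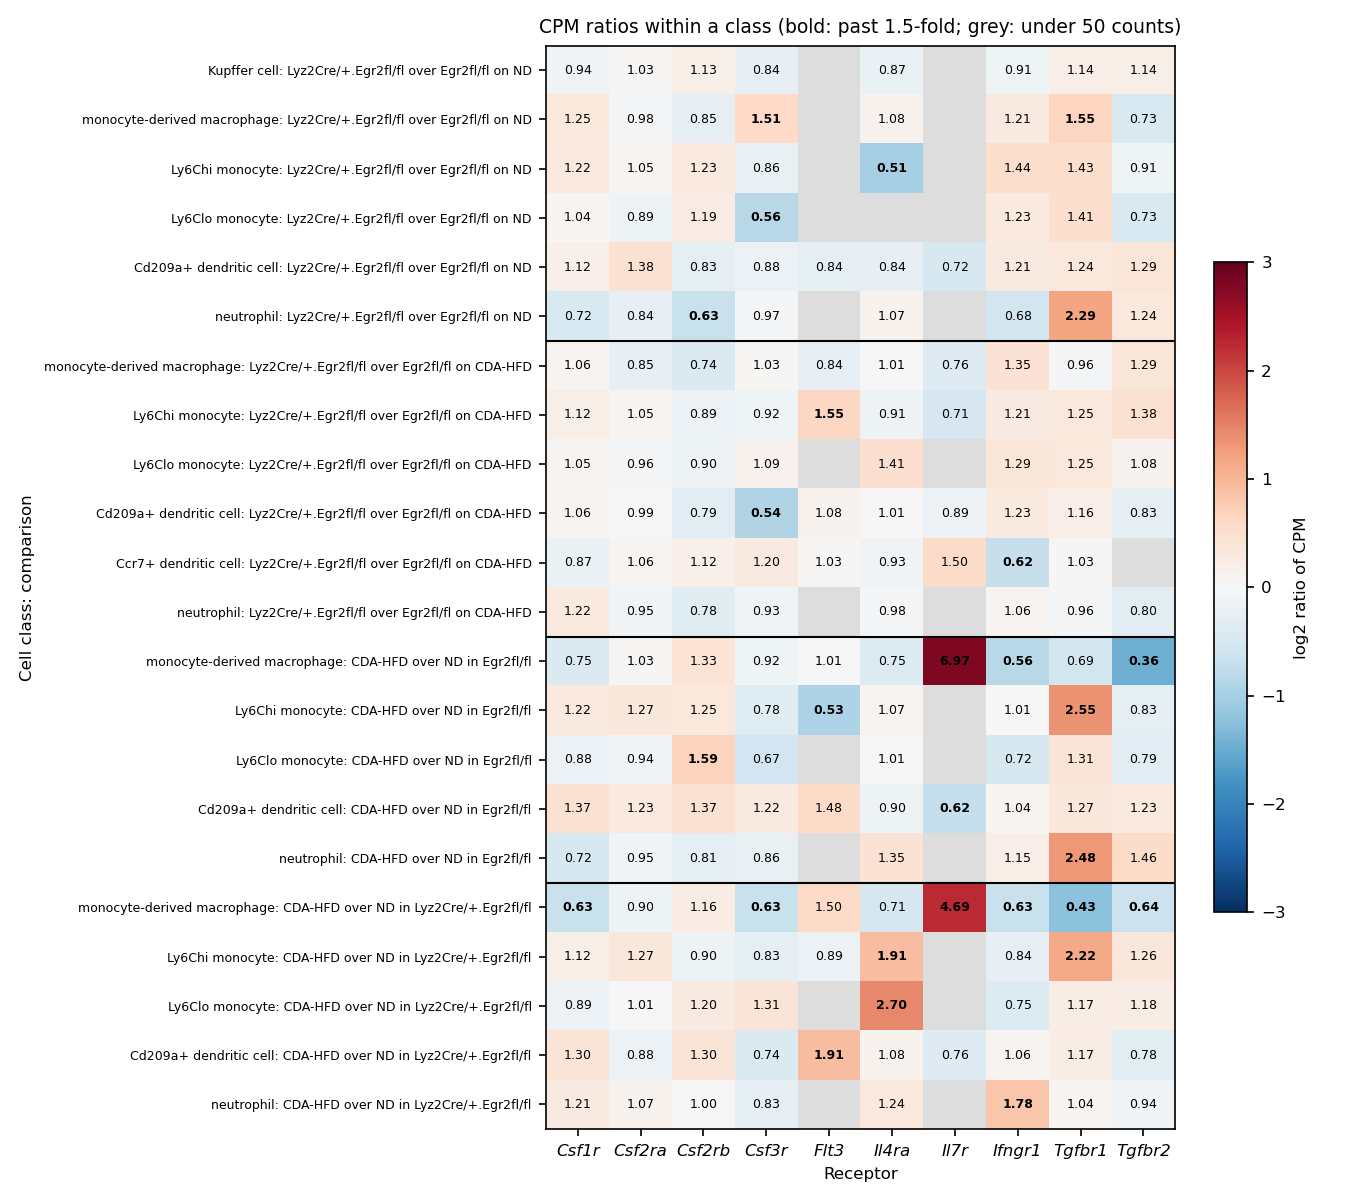
CPM ratios of the 10 receptors (columns) in 22 combinations of class and comparison (lines) on a log2 colour scale, with the ratio written in each field, bold past 1.5-fold, and grey where both mice together held under 50 counts. The lowest and highest macrophage diet ratios are 0.362 for Tgfbr2 and 6.97 for Il7r, both in fl/fl, and 28 of 194 fields are bold, 7 of which come within 1.5-fold under TMM scaling.

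Macrophages were divided by which of the hLAM and moKC scores led by at least 0.1. The hLAM side held 6, 6, 841 and 685 cells, the moKC side 54, 52, 164 and 253, and 13, 10, 330 and 438 lay between them. ND macrophages were thus mostly of the moKC side, and those of CDA-HFD fl/fl mostly of the hLAM side (841 of 1335). In CDA-HFD Cre the hLAM side was the largest part but not the majority (685 of 1376). Il7r was 0 CPM on the moKC side of both ND mice, 5.58 CPM (3.54 to 8.37) on that of CDA-HFD fl/fl and 10.2 (7.72 to 13.3) on that of CDA-HFD Cre, where 34.8% and 32.1% of the counts came from 1 cell. Between the sides it was 10.3 and 13.7 CPM in the CDA-HFD-fed mice, and on the hLAM side 72.0 and 61.9. The hLAM over moKC ratio of Il7r was 12.9 (8.57 to 20.4) in fl/fl and 6.06 (4.62 to 8.09) in Cre. T or NK cell markers on the hLAM side summed to 4.70 and 2.30 CPM and on the moKC side of the same mice to 3.39 and 4.19, with 9 and 10 and 3 and 7 of 12 detected and Klrb1c or Cd3d most abundant, and their part was not tested.

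Tgfbr2 was lower on the hLAM side, 38.7 and 48.7 CPM against 87.5 and 98.3 on the moKC side, at ratios of 0.442 (0.390 to 0.503) and 0.495 (0.442 to 0.555). Ifngr1 had 0.683 (0.634 to 0.736) and 0.621 (0.583 to 0.661), Csf1r 0.700 (0.678 to 0.723) and 0.572 (0.556 to 0.590), and Tgfbr1 0.914 (0.846 to 0.989) and 0.747 (0.695 to 0.803). Csf2ra was the other way, at 1.46 (1.33 to 1.60) and 1.37 (1.25 to 1.49). Past 1.5-fold were Il7r and Tgfbr2 in fl/fl, where 27.8% of all genes were, and Il7r, Tgfbr2, Ifngr1 and Csf1r in Cre, where 24.8% were. The sides rest on the scores, so the marker genes themselves are no result. Kupffer cell markers also differed, at 2314 and 2389 CPM on the moKC side and 97.6 and 154 on the hLAM side (10 and 10 of 10 detected, Cd5l most abundant, and 9 and 10, Slc40a1 and Folr2), and their part was not tested.

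With the moKC side alone, a comparison chosen after the unequal filling was seen, the diet ratio of Il7r was at least 1.15-fold in fl/fl and at least 2.20-fold in Cre against the floor of 3 counts in the ND-fed mouse. These are lower bounds from 0 counts on ND and 23 and 56 on CDA-HFD, the first under the minimum of 50. Tgfbr2 had 0.487 (0.393 to 0.608) in fl/fl and 0.837 (0.658 to 1.08) in Cre, the latter within 1.5-fold. Ifngr1 had 0.576 (0.499 to 0.667) and 0.761 (0.666 to 0.872), and Tgfbr1 0.607 (0.518 to 0.713) and 0.444 (0.390 to 0.506). Il4ra had 0.777 (0.530 to 1.17) and 0.632 (0.449 to 0.909). Lower past the fold on the moKC side were thus Tgfbr1, Tgfbr2 and Ifngr1 in fl/fl and Tgfbr1 and Il4ra in Cre, and among all genes 40.9% and 39.4% were past it. Tgfbr1 in fl/fl and Il4ra in Cre were within it for the whole class. Median depth on this side was 8750.0, 10629.5, 23355.5 and 20310.0 counts per cell, lower on ND, and its part was not tested. Cells of this side may also differ in kind between the diets. In the whole class moKC markers were led by Cd207 on ND and by Cd5l on CDA-HFD. Cd209a+ dendritic cell markers there were higher on ND. The part of such differences in the moKC side ratios was not tested. Csf2rb, within the fold for the whole class, had 1.93 (1.38 to 2.76) in fl/fl.

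**Figure D3:**
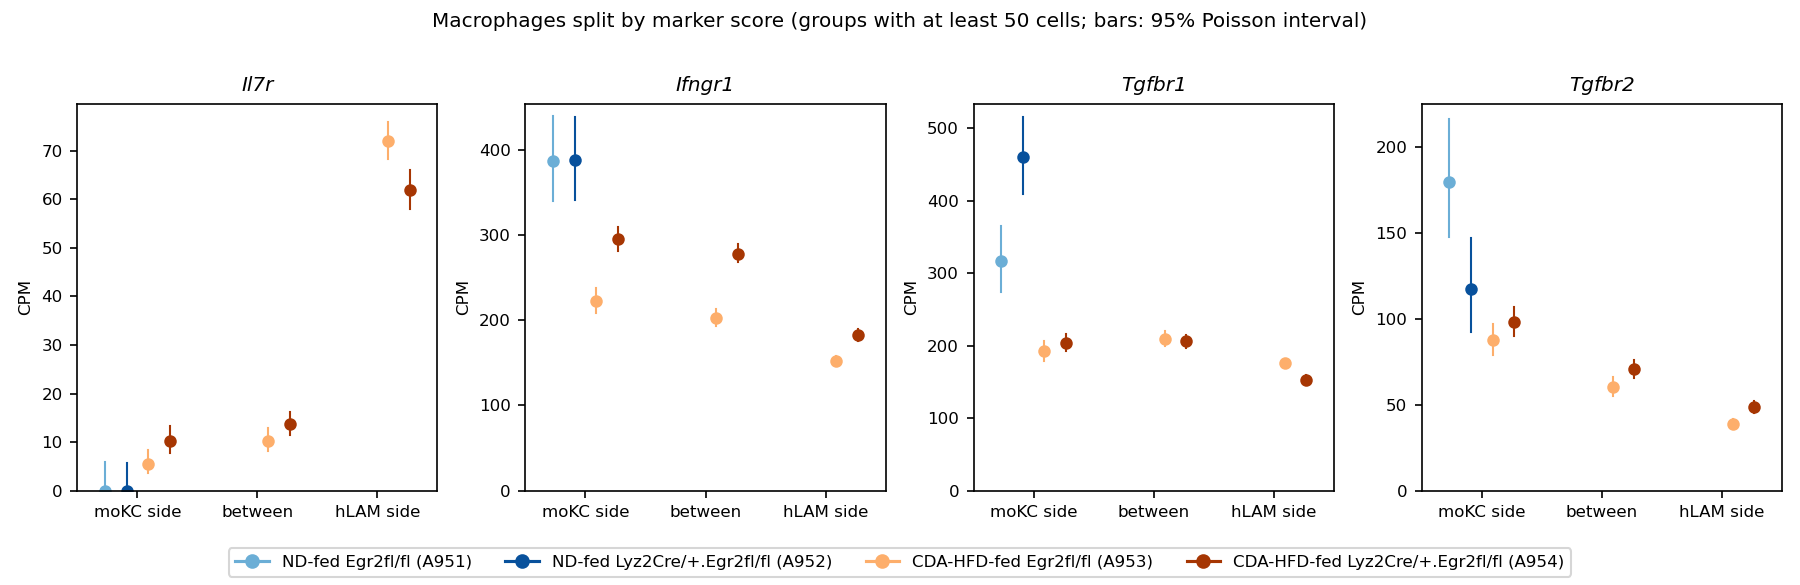
CPM of Il7r, Ifngr1, Tgfbr1 and Tgfbr2 in macrophages of the moKC side, between the sides and of the hLAM side, 1 point per mouse with at least 50 such cells and bars giving the exact Poisson 95% interval. Il7r goes from 5.58 and 10.2 CPM on the moKC side to 72.0 and 61.9 on the hLAM side of the CDA-HFD-fed mice, and Tgfbr2 from 87.5 and 98.3 to 38.7 and 48.7.

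Genes known to rise with interferon-γ (10 listed) were described beside the receptor for it. On ND, those past 1.5-fold were all lower in Cre than in fl/fl in Kupffer cells (7 of 8 tested, median ratio 0.505), macrophages (7 of 8, 0.256), Ly6Chi monocytes (8 of 8, 0.463) and Cd209a+ dendritic cells (7 of 7, 0.421), against 8.85%, 25.5%, 21.5% and 19.9% of all genes past the fold in either direction. Ifngr1 itself in these classes had ratios of 0.910, 1.21, 1.44 and 1.21. The furthest in macrophages were Cxcl9, a T cell-attracting chemokine, with 541 CPM in fl/fl and 1.11 in Cre from 550 and 1 counts, a ratio of 0.00206 (5.20e-05 to 0.0115), and Cxcl10, with a ratio of 0.0128 (0.00263 to 0.0378). In Ly6Clo monocytes 3 of 6 were lower in Cre on ND, and in neutrophils 1 was higher and 2 lower of 6 (all genes 23% and 24.7%). On CDA-HFD 4 of 8 were lower in Cre macrophages, 3 of 5 in Ly6Clo monocytes and 2 of 5 in neutrophils (all genes 8.51%, 13.9% and 17.9%). Past the fold, 1 of 8 was higher in Ly6Chi monocytes, 1 of 7 in Cd209a+ dendritic cells and, with 1 lower, 2 of 7 in Ccr7+ dendritic cells (all genes 9.22%, 9.27% and 21.9%). By diet, ratios past the fold lay below 1 in fl/fl macrophages (8 of 8, median 0.114), in fl/fl Ly6Chi monocytes (8 of 8, 0.113), and in Cre Ly6Chi monocytes (7 of 8, 0.333). They also lay below 1 in Ly6Clo monocytes of both genotypes (6 of 6 and 5 of 6), in neutrophils of both (3 of 6 and 3 of 5) and in fl/fl Cd209a+ dendritic cells (6 of 7). In Cre, 5 were lower and 2 higher of 8 in macrophages and 2 lower and 2 higher of 7 in Cd209a+ dendritic cells. Of all genes 45.9% and 46.2% were past the fold by diet in macrophages of fl/fl and Cre, 29.1% and 35% in Ly6Chi monocytes, 35.2% and 37.1% in Ly6Clo monocytes, 24.5% and 25.3% in Cd209a+ dendritic cells and 47.3% and 37.3% in neutrophils. The 8 markers of an interferon-responding state, which share Cxcl10 with the list, summed to 638, 338, 219 and 262 CPM in macrophages, highest in ND fl/fl. ND fl/fl is the reference of both the ND genotype ratios and the fl/fl diet ratios, so these 2 sets are not independent. With 1 mouse each, neither genotype nor diet can be told apart from the mouse.

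Of genes known to rise with TGF-β (9 listed), those past the fold were all higher on CDA-HFD in Ly6Chi monocytes, where Tgfbr1 was also higher: 4 of 5 in fl/fl (median ratio 2.68), led by Cdkn1a, a cell cycle inhibitor, at 3.06, and Tgif1 at 3.02, and 5 of 5 in Cre (median 2.16), led by Smad7, the inhibitory Smad, at 6.50. Listed genes past the fold were also all higher on CDA-HFD in Ly6Clo monocytes (4 and 5 of 6), Cd209a+ dendritic cells (5 and 4 of 6) and neutrophils (3 and 4 of 5). Among these classes Tgfbr1 itself was past the fold by diet only in fl/fl neutrophils, at 2.48. In fl/fl and Cre the shares of all genes past the fold by diet were 29.1% and 35% in Ly6Chi and 35.2% and 37.1% in Ly6Clo monocytes, 24.5% and 25.3% in Cd209a+ dendritic cells and 47.3% and 37.3% in neutrophils. In macrophages 3 were higher and 1 lower of 8 in fl/fl, and 3 and 2 in Cre. There 45.9% and 46.2% of all genes were past the fold by diet, and 25.5% and 8.51% by genotype on ND and CDA-HFD. Between genotypes, in macrophages, 1 of 4 was lower in Cre on ND and 1 of 8 on CDA-HFD. Genes known to rise with IL-4 (7 listed) in macrophages had 4 of 7 lower in Cre on CDA-HFD, led by Retnla, an alternative activation marker, with 73 counts in fl/fl and 0 in Cre, and by Cish at 0.637, and 2 of 4 lower on ND. Between diets 3 were higher and 3 lower in fl/fl and 3 and 3 in Cre, while Il4ra had ratios of 0.755 and 0.706.

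The other genes around the receptors are given for macrophages, where 25.5% and 8.51% of all genes were past the fold by genotype on ND and CDA-HFD and 45.9% and 46.2% by diet in fl/fl and Cre. Partner chains and co-receptors (12) had 0 higher and 4 lower of 8 tested in Cre against fl/fl on ND, among them Eng, a TGF-β co-receptor, at 0.236 and Csf2rb2 at 0.402, and 0 higher and 2 lower of 10 on CDA-HFD. Csf2rb2, the near-copy of Csf2rb, stood at 44.3, 17.8, 49.5 and 32.4 CPM, and Ifngr2, the signalling partner of Ifngr1, at 180.2, 101, 102 and 106. By diet the partner chains were 3 higher and 4 lower of 10 in fl/fl and 1 higher and 2 lower of 9 in Cre. Other cytokine and growth factor receptors (31) were 0 higher and 0 lower of 8 on ND, 1 higher and 0 lower of 23 on CDA-HFD, 3 higher and 8 lower of 21 by diet in fl/fl, with Igf1r at 3.96 and Il1rl2 at 0.175 furthest, and 7 higher and 5 lower of 21 in Cre, with Met at 5.99 furthest upward. Kinases and transcription factors (15) were 0 higher and 2 lower of 8 and 0 higher and 0 lower of 15 by genotype, and 1 higher and 5 lower of 15 and 0 higher and 3 lower of 15 by diet. Feedback inhibitors (14) were 2 higher and 2 lower of 6 and 0 higher and 3 lower of 14 by genotype, and 3 higher and 7 lower of 14 and 2 higher and 6 lower of 14 by diet. Of 15 ligands, 11 were analysed and few had 50 counts: Tgfb1 had a ratio of 1.60 on ND, 1 of 1 tested, Flt3l 1.61 on CDA-HFD, 1 of 4 past the fold, and by diet 2 of 4 were lower in fl/fl and 1 of 4 in Cre, Tgfb3 furthest in both (0.351 and 0.515).

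Genes whose levels ran most alike with each receptor were found over 25 combinations of class and mouse, among 11841 genes, by Pearson correlation of log2(CPM + 5). The points share mice and 1 library, so the values describe these cells only. The nearest to Csf1r were Vamp4 (r = 0.941) and Ctsa (r = 0.940), to Csf2ra Cyp4f18 (r = 0.941) and Ptk2b (r = 0.910), and to Csf2rb Gca (r = 0.854) and Bcl3 (r = 0.835). Csf3r ran with Map1lc3b (r = 0.964) and Vnn3 (r = 0.959) and Flt3 with Kctd14 (r = 0.944) and P2ry10 (r = 0.944). For Il4ra they were Prrg2 (r = 0.801) and Nbeal1 (r = 0.789), for Il7r Tmem120b (r = 0.843) and Sox4 (r = 0.818) and for Ifngr1 Ly6e (r = 0.949) and Eif4g3 (r = 0.927). Tgfbr1 was nearest to Dcakd (r = 0.820) and Gpr31c (r = 0.798), and Tgfbr2 to Cd300c2 (r = 0.892) and Fcgr4 (r = 0.888). Among the receptors themselves, Csf1r and Tgfbr2 had r = 0.775, Tgfbr1 and Tgfbr2 r = 0.685, and Flt3 and Tgfbr2 r = -0.814.

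Promoter sequences of 8 of the 10 receptors, 9 in all, were found in a RefSeq table of 32851 mouse promoters (GRCm38.p6), each running from 250 bases before the start of transcription to 50 after it. The letters GCGTGGG, bound by EGR factors, were in 5.04% of all these promoters on either strand and in those of Il4ra and Tgfbr2. GAGGAA, a PU.1 core, was in 28.3% and in promoters of Csf2ra, Csf3r, Tgfbr1 and Tgfbr2, and TTGCNNAA, a C/EBP site, in 10.8% and in those of Il7r and Tgfbr2. A match describes letters only. The 4 promoters shown belong to the neutrophil receptor (Csf3r, chr4:126024409-126024708, plus strand), to the receptors furthest apart between macrophages of the 2 diets in fl/fl (Il7r, chr15:9529827-9530126, minus strand, and Tgfbr2, chr9:116175314-116175613, minus strand) and to the other with an EGR match (Il4ra, chr7:125552021-125552320, plus strand). Capitals mark these letters, GCGTGGG in Il4ra, GAGGAA in Csf3r, TTGCTCAA in Il7r and all 3 motifs in Tgfbr2.
Csf3r: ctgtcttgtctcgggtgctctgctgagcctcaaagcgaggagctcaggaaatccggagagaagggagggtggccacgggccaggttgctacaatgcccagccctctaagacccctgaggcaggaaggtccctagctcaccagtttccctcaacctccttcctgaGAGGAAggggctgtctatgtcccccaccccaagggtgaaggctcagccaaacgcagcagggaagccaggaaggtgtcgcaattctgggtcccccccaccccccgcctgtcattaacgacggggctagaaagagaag
Il4ra: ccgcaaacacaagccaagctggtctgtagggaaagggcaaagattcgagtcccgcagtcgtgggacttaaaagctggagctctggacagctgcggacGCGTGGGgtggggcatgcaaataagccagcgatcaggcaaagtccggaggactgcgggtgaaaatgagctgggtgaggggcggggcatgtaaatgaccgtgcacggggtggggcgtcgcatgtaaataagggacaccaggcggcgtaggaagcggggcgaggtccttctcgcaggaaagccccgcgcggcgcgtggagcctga
Il7r: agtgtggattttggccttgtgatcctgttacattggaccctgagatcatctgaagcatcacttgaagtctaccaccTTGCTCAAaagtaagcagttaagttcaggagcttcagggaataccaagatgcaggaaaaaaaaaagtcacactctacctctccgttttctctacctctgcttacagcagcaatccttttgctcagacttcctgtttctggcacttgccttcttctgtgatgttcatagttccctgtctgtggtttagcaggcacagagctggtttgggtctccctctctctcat
Tgfbr2: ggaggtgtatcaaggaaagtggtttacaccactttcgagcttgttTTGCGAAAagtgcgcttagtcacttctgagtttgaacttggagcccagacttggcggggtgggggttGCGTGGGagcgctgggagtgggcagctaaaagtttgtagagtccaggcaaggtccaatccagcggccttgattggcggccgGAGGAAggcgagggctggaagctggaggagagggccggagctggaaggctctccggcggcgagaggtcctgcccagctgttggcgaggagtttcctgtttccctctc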

How the data were processed

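The authors trimmed and mapped TAS-Seq reads to GRCm38, assigned hashtags, named doublets and deposited counts per gene and barcode, whole numbers, with cells assigned to hashtags A951 to A954. The labels tie these to the mice, although 1 passage on cell loading writes A964 where A954 was taken to be meant. Whether these counts are reads or unique molecules is not given in the sources used here. Intervals of levels and ratios treat counts as independent, so they are too narrow if the counts are reads. At most they cover counting error. The 7 other hashtag columns were not used, and 1392 hashtag doublets were left out. Of the cells, 2966 lay near a border of the gate.

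Cells with up to 25% mitochondrial counts were kept. Marker values per 10000 counts, as natural log of 1 plus the value, were divided by the 90th percentile of positive cells, limited to 1 and averaged into scores. Cells were placed at a score of at least 0.3 with a lead of 0.1. Counts were summed by class and mouse, and CPM, ratios and exact intervals were computed in Python 3.11.15 with numpy 2.4.6, scipy 1.17.1 and pandas 2.3.3, where 3 counts were the floor. Thinning drew 3000 counts per cell. No test was run, since each group is 1 mouse. Ratio calculations were tested on simulated data.

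Alternatives were TMM scaling (edgeR 4.0.16), the mean of cell CPM, a mitochondrial limit of 10%, a lead of 0.2, Seurat 5.3.0 clusters (R 4.3.3, 57 components, resolution 1, 53 receptors left out), cells with 90% of hashtag counts on their own hashtag, removal of the top 5% of Scrublet scores (scanpy 1.11.5), a minimum of 200 counts and a fold of 2. Clustering was run in 3 versions. The first, limited to 2000 variable genes at a scale of 1000000, gave 25 clusters, the second, at a scale of 10000, 21, and the third, with all 5035 variable genes at 1000000, 24. The third was kept as the planned one after the clusters of the others had been compared with the classes, and the scale was chosen here. The other 2 versions and the moKC side alone are alternatives chosen after seeing the data. Pathway lists and macrophage sides were compared on total counts only. Figures used matplotlib 3.10.9. All 10 receptors are named. From each pathway list, ligands, partner chains, other receptors, kinases and transcription factors, feedback inhibitors and genes known to rise with IL-4, interferon-γ or TGF-β, up to 2 genes furthest past the fold in each direction could be named, and 2 genes nearest each receptor by correlation among genes with 500 counts. Ifngr2 was named outside this rule, as were Egr2 and Lyz2, which check the genotypes. Motifs and printed promoters were chosen with the levels known. The receptors and lists were chosen with earlier results of these data known.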

Additional observations from a re-analysis of the deposited data

Results flagged for a closer look

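Tgfbr1 in monocyte-derived macrophages had a genotype ratio, Cre over fl/fl, of 1.55 between the ND-fed mice and 0.963 between the CDA-HFD-fed mice, on opposite sides of 1. The CDA-HFD ratio lay close to 1. Alternatives gave 1.07 to 1.58 for the ND ratio, with 3 of 10 past 1.5-fold. With 1 mouse per group the difference between these ratios was not tested. The ND macrophages numbered 73 and 68 and the CDA-HFD macrophages 1335 and 1376.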

How the results depend on the processing

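Of the 263 ratios that the 28 pairs past 1.5-fold gave under 10 alternatives, 207 stayed within the counting interval of the reported ratio, 45 moved beyond it in the same direction and 11 turned direction. The 45 include 2 lower bounds, of Il7r between diets with the moKC side alone, where ND counts were 0. For these a move beyond the interval cannot be told. Those that turned were Csf3r in macrophages between genotypes on ND, at 0.878 in Seurat clusters, 0.896 with 2000 variable genes and 0.991 with 2000 variable genes and a scale of 10000; Csf3r in Cd209a+ dendritic cells between genotypes on CDA-HFD, at 1.12, 1.09 and 1.09 in the same clusterings; and Il7r in Cd209a+ dendritic cells between diets in fl/fl, at 2.77, 2.43 and 1.60. Ifngr1 in Ccr7+ dendritic cells between genotypes on CDA-HFD came to 1.20 with the scale of 10000, and Csf2rb in neutrophils between genotypes on ND to 2.05 with cells of at least 90% own hashtag, which rests on 19 and 40 cells, under the minimum of 50. The cause was not tested in any of them.

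The number of pairs of receptor and class past the fold between genotypes on ND, 6, was 3 with a minimum of 200 counts and 1 with a fold of 2. On CDA-HFD it was 3, and 5 with at least 90% own hashtag, 1 in clusters with a scale of 10000 and 0 with a fold of 2. Between diets in fl/fl it was 8, and 14 with TMM scaling, with at least 90% own hashtag and in clusters of 2000 variable genes, 13 with the mean of cell CPM, in Seurat clusters and with the scale of 10000, and 4 with a fold of 2. Between diets in Cre it was 11, and 4 with a fold of 2. Over all comparisons it was 28, and 9 with a fold of 2, a stricter threshold by construction. The other causes were not tested.

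The class of the highest level, not taken from pooled counts, was kept by 7 of the 10 receptors under TMM scaling. There Csf2ra went from Ly6Clo monocytes and Il4ra from Ccr7+ dendritic cells to neutrophils, and Flt3 from Xcr1+ to Ccr7+ dendritic cells. The class was kept by 9 in each of the 3 clusterings and with at least 90% own hashtag, where that of Il4ra became neutrophils. It was kept by 9 with the moKC side alone, where that of Tgfbr2 became macrophages. By pooled counts, neutrophils already led for Il4ra in the reported analysis (70.9 CPM against 68.2 in Ccr7+ dendritic cells). For Flt3 it was Ccr7+ dendritic cells (114 CPM against 106 in Xcr1+ dendritic cells). The clusterings with 2000 variable genes and the moKC side alone were chosen after seeing the data. No paired analysis was run, since pairing by diet or genotype would leave 2 pairs. ND macrophages numbered 73 and 68, with 7 Il7r counts in each mouse.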

Other observations

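Cells in 2 states that cross the classes were also summed. In the 291 cells with a proliferation score of at least 0.3, pooled over the 4 mice, Flt3 stood at 48.5 CPM (44.0 to 53.3), Csf1r at 457 CPM (443 to 471) and Il7r at 17.3 CPM (14.7 to 20.3). Over the pooled Cd209a+ dendritic cells, Flt3 stood at 95.5 CPM (91.8 to 99.3). In the 653 cells with an interferon-responding score of at least 0.3, Csf3r stood at 200.3 CPM (192 to 209), Csf1r at 1284 CPM (1262 to 1306), Ifngr1 at 288 CPM (278 to 299) and Tgfbr2 at 72.0 CPM (66.9 to 77.4). These cells mix classes and mice, and the part of that mix in the levels was not tested.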
